A study of Saccharomyces cerevisiae with 5 samples.

Results

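The histone genes of budding yeast (Saccharomyces cerevisiae) were followed through release from high hydrostatic pressure. The set is the 8 core histone genes, the variant gene HTZ1 and the linker histone gene HHO1, taken as the array features whose symbol in the platform annotation is one of these 10 names. A feature was found for 8 of the 10 among 6336 features, 1 feature for each gene, and 7 genes carried a value. HTA2 and HHO1 are not named by any feature in the annotation used here. The feature of HTZ1, which encodes the variant H2A.Z, has no value in any scan.

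Recovering cells came from an exponentially growing culture that was held for 16 h at 30 MPa and 25 °C, decompressed, grown for 2 h at 0.1 MPa and then harvested. The decompressed cells had the same 16 h under pressure and were harvested at 0 h, so both groups had been pressurized and neither is an unstressed culture. PolyA RNA of recovering cells (Cy5) and of decompressed cells (Cy3) shared each 2-colour spotted array, in 3 hybridizations of independent biological samples, all with the dyes in the same order. Without a dye swap, a dye effect of a gene and its difference between the groups cannot be told apart. Laser power was set high and then low for hybridizations 1 and 2, and a single scan was made of hybridization 3, so there are 5 scans. The strain is not given in the labels.

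Core histones H2A, H2B, H3 and H4 form the protein spool of the nucleosome. In budding yeast each is made from a pair of gene copies, and the genes lie as divergently transcribed neighbours, an H2A gene beside an H2B gene and an H3 gene beside an H4 gene. Their transcription is confined mostly to S phase, when new DNA has to be packaged. At most of these loci the HIR complex and other factors repress transcription outside S phase, and HTA2-HTB2 is known as the locus that does not depend on HIR. Yeast histone mRNAs carry polyA tails, unlike the replication-dependent histone mRNAs of animals, so a polyA preparation primed with oligo dT includes them. H2A.Z, the product of HTZ1, marks promoters, and HHO1 encodes the linker histone.

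Each value is a log2 ratio of recovering over decompressed cells. The labels do not state which channel is the numerator. The labels list the recovering cells as the first channel, and on that basis Cy5 over Cy3 is the likely reading; if it were Cy3 over Cy5, higher and lower would trade places throughout. Values were present for 68.2% (high power) and 57.8% (low power) of features in hybridization 1, for 79.0% (high) and 63.4% (low) in hybridization 2, and for 33.0% in the single scan of hybridization 3. Column medians lay between -0.01 and 0.01.

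The 7 measured histone genes stood above 0 in each of their 33 scan values, where scans of 1 hybridization are not replicates. Of all 1644 genes and features with a value in every scan, 28.1% were above 0 in all 5. Of the 6 histone genes with a value in every hybridization, 5 rose in recovery and none fell (limma, adjusted p threshold 0.05). Among all 1891 genes and unnamed features tested in the same fit, 27.2% were called, 15.1% higher and 12.2% lower. The histone count was 2 of 6 when hybridization 1 or 2 was left out (6.08% and 8.2% of all tested called higher), 4 of 6 when hybridization 3 was (13.9%), and 2 of 6 after a correction for coding length (9.77%). The median log2 ratio of the 6 was 1.05, against 0.09 for all tested. All 6 were above 0 in the 3 hybridizations, as were 31.9% of all tested. Of them 4, HHF1, HHF2, HHT1 and HTA1, were called at 2-fold or more, as were 130 of the 1891. In a culture, a larger share of cells with active histone genes and more histone mRNA per cell cannot be told apart.

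**Figure D1:**
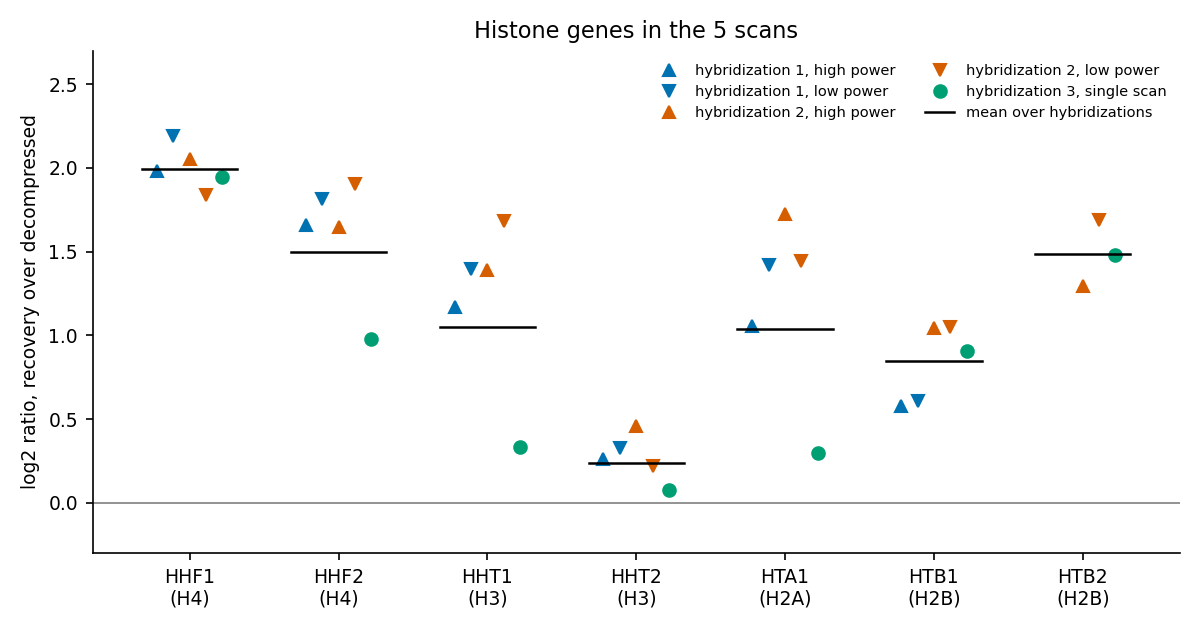
Log2 ratios, recovery over decompressed, of the 7 histone genes with values, in the 5 scans (triangles for high and low laser power, circles for the single scan), with a bar at the mean over hybridizations. HHF1 sits between 1.84 and 2.19 in every scan, whereas HHT1 and HTA1 are lower in hybridization 3, at 0.33 and 0.30, than in the others.

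HHF1 (YBR009C) and HHF2 (YNL030W) both encode histone H4 and had the highest mean ratios among the 6. HHF1 had log2 ratios of 1.98 (high power) and 2.19 (low power) in hybridization 1, of 2.05 (high) and 1.84 (low) in hybridization 2, and of 1.94 in hybridization 3; for the other genes the high power value is likewise given before the low. Its 3 hybridization values, from 1.94 to 2.09, were the closest together of the 6 genes. The mean was 1.99 ± 0.08 (SD, n = 3), a 3.98-fold difference (limma SE 0.24, adjusted p = 0.000105), which placed it as number 7 of the 1891 by mean ratio. HHF2 had values of 1.66 and 1.82 in hybridization 1, 1.65 and 1.90 in hybridization 2, and 0.98 in hybridization 3. It was close to the same level in the first and second hybridizations and lower in the third. Its mean was 1.50 ± 0.45 (SD, n = 3), or 2.82-fold, with a limma SE of 0.25 and an adjusted p of 0.00105. HHF1 ranked number 22 of 4153 named genes in hybridization 1, 25 of 4741 in hybridization 2 and 13 of 1988 in hybridization 3. HHF2 ranked 40, 36 and 200 in the same hybridizations.

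HHT1 (YBR010W) and HHT2 (YNL031C) encode histone H3. HHT1 had values of 1.17 and 1.40 in hybridization 1, 1.39 and 1.68 in hybridization 2, and 0.33 in hybridization 3. The last of these lay below all others. The mean was 1.05 ± 0.63 (SD, n = 3), or 2.07-fold, and passed the test (limma SE 0.27, adjusted p = 0.0125). HHT2 had values of 0.26 and 0.33 in hybridization 1, 0.46 and 0.22 in hybridization 2, and 0.08 in hybridization 3. Its mean of 0.24 ± 0.14 (SD, n = 3) was no larger than its limma SE of 0.24 and did not pass (adjusted p = 0.504). HHT2 ranked 1289 of 4153, 1444 of 4741 and 901 of 1988 named genes in the 3 hybridizations, well inside the bulk of the array. HHT1 missed the threshold when hybridization 1 was left out (0.93, limma adjusted p = 0.088) or hybridization 2 was (0.81, adjusted p = 0.111), and passed when hybridization 3 was (1.41, adjusted p = 0.0102).

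HTA1 (YDR225W) encodes histone H2A. It had values of 1.06 and 1.42 in hybridization 1, 1.72 and 1.45 in hybridization 2, and 0.30 in hybridization 3. As for HHT1, hybridization 3 gave the lowest value. The mean was 1.04 ± 0.67 (SD, n = 3), or 2.06-fold (limma SE 0.28, adjusted p = 0.014). It missed the threshold when hybridization 1 (0.94, limma adjusted p = 0.088) or hybridization 2 (0.77, adjusted p = 0.126) was left out, and passed when hybridization 3 was (1.41, adjusted p = 0.0105).

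HTB1 (YDR224C) and HTB2 (YBL002W) encode histone H2B. HTB1 had values of 0.58 and 0.61 in hybridization 1, 1.04 and 1.05 in hybridization 2, and 0.91 in hybridization 3. Hybridization 1 was the lowest here, and hybridization 3 did not stand apart. The mean was 0.85 ± 0.23 (SD, n = 3), or 1.80-fold (limma SE 0.24, adjusted p = 0.0182). With any single hybridization left out it missed the threshold, at 0.98 without the first (limma adjusted p = 0.0602), 0.75 without the second (adjusted p = 0.114) and 0.82 without the third (adjusted p = 0.0501).

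HTB2 had no value in hybridization 1, had 1.29 (high) and 1.69 (low) in hybridization 2, and had 1.48 in hybridization 3. Its 2 hybridization values, 1.49 and 1.48, lay closer together than the scans of hybridization 2. The mean was 1.48 ± 0.01 (SD, n = 2), or 2.80-fold. HTB2 could be tested only in the fit over the 4368 genes and features with at least 2 hybridizations, where it was called higher (limma SE 0.32, adjusted p = 6.65e-05) and 11.9% of all were. In that fit the variance was pooled fully across genes, so the SE and p of a gene, HTB2 included, do not reflect its own spread. This holds for every adjusted p from that fit given below. The same fit called 6 of the 7 measured histone genes higher, with HHT2 as the exception.

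**Figure D2:**
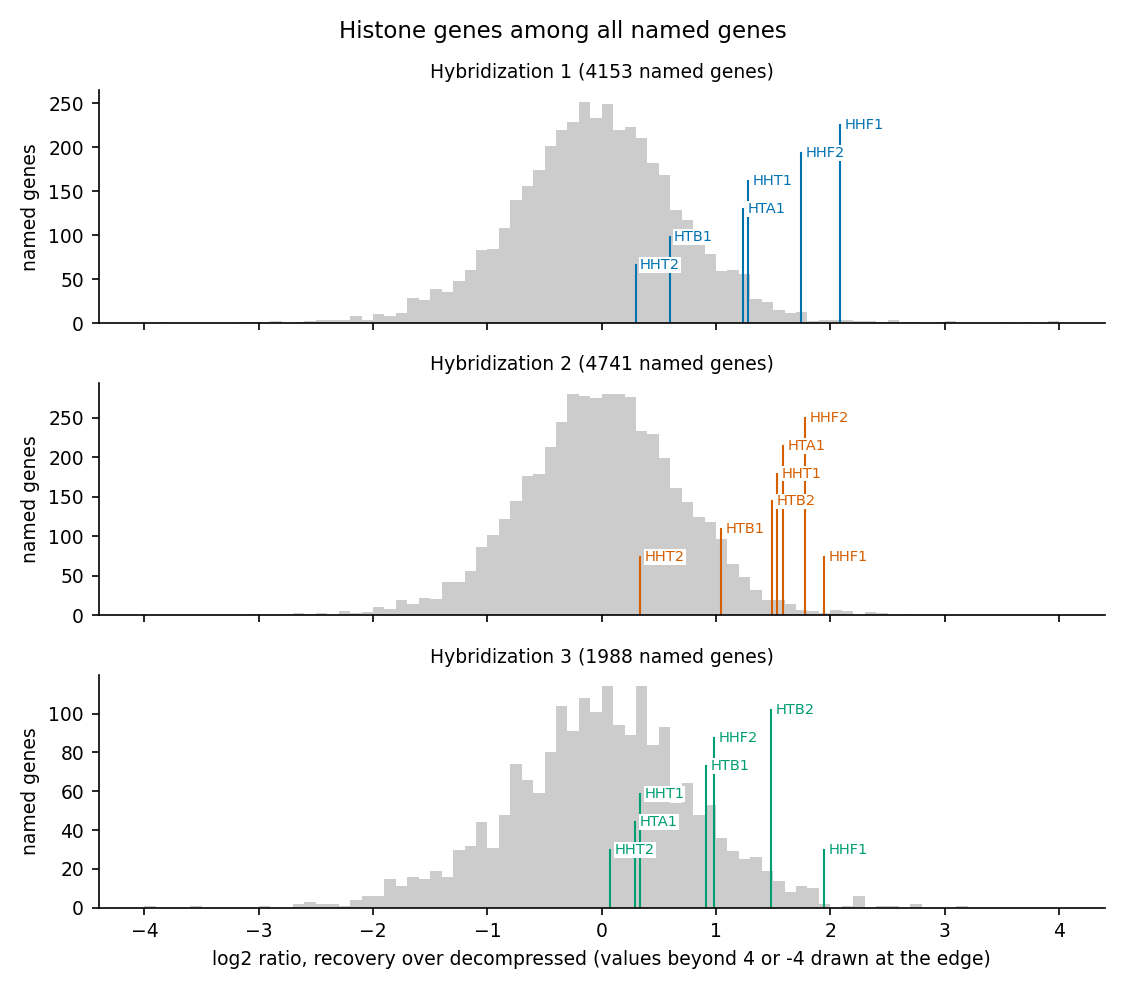
Histograms of the log2 ratio, recovery over decompressed, of all named genes in each hybridization (number of genes per 0.1 step), with a line at each histone gene; line heights only separate the labels. The H4 gene HHF1 lies in the upper tail in each panel and the H3 gene HHT2 in the bulk of each, while HHT1 and HTA1 lie in the upper tail in hybridizations 1 and 2 and near the centre in hybridization 3.

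The genes were then compared within pairs, over the hybridizations in which both had a value. Of 10 pairs listed, 6 could be compared, since HTA2 and HTZ1 had no value. The test was an exact two-sided sign-flip permutation test, whose smallest possible p is 0.25 for 3 hybridizations and 0.5 for 2, so no pair could pass. The values are therefore given mainly as sizes and ranges.

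Between copies of one histone, the sizes differed. HHF1 minus HHF2 was 0.35, 0.17 and 0.97 in the 3 hybridizations, with a mean of 0.50 ± 0.42 (SD, n = 3, exact p = 0.25, adjusted p = 0.375 over the 6 pairs). HHF1 was higher each time, most in hybridization 3. HHT1 minus HHT2 was 0.99, 1.20 and 0.26, with a mean of 0.81 ± 0.49 (SD, n = 3, exact p = 0.25, adjusted p = 0.375). HHT1 was higher each time, least in hybridization 3. HTB1 minus HTB2 was -0.44 in hybridization 2 and -0.57 in hybridization 3, with a mean of -0.51 ± 0.09 (SD, n = 2, exact p = 0.5, adjusted p = 0.6). Copies of a histone gene have similar coding sequences, so signal of one copy may reach the feature of the other on an array of this kind, and its part in these differences was not tested.

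Between divergent neighbours of one locus, the H4 gene stood above the H3 gene at both loci and in every hybridization. If signal of one copy reaches the feature of the other, the loci are not separate observations of this order. That was not tested. HHT1 minus HHF1 was -0.80, -0.41 and -1.61, with a mean of -0.94 ± 0.61 (SD, n = 3, exact p = 0.25, adjusted p = 0.375). HHT2 minus HHF2 was -1.44, -1.44 and -0.90, with a mean of -1.26 ± 0.31 (SD, n = 3, exact p = 0.25, adjusted p = 0.375), so the ratio of HHT2 was 0.417 times that of HHF2. The order H4 above H3 held with the high scans alone, with the low scans alone and after the correction for coding length described below. Leaving out 1 hybridization could not change this order, since every hybridization had the same sign. At the HTA1-HTB1 locus the difference had no constant sign. HTA1 minus HTB1 was 0.65, 0.54 and -0.61, with a mean of 0.19 ± 0.70 (SD, n = 3, exact p = 0.75, adjusted p = 0.75), and -0.038 without hybridization 1.

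**Figure D3:**
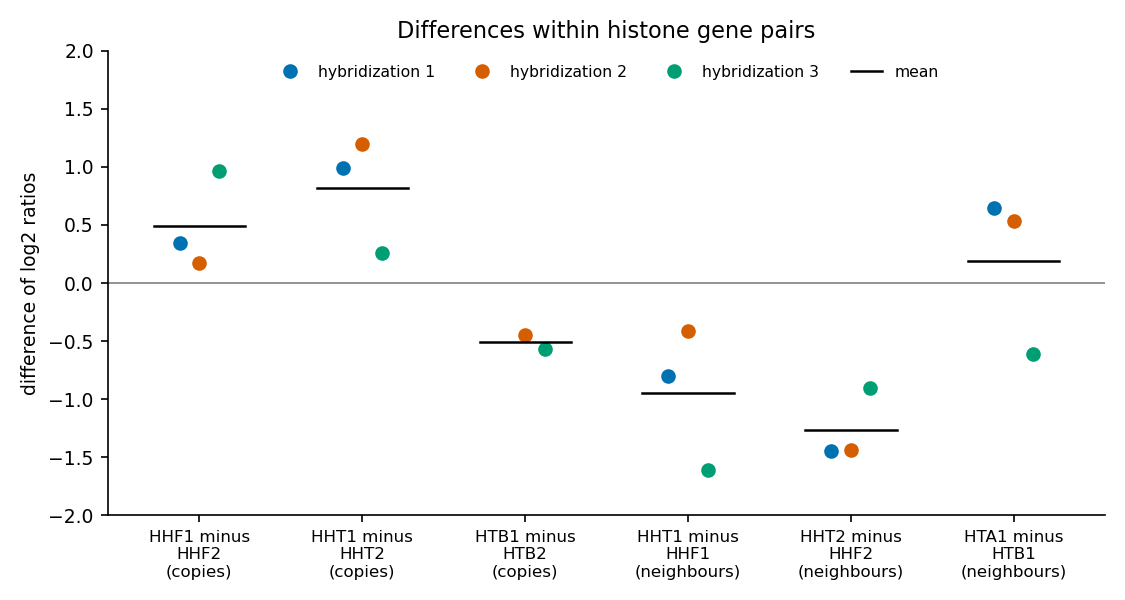
Differences of log2 ratios within the 6 histone gene pairs that could be compared, 1 point per hybridization and a bar at the mean; copies encode the same histone and neighbours share a divergent promoter region. HHT1 minus HHF1 and HHT2 minus HHF2 are below 0 in every hybridization, and HTA1 minus HTB1 falls on both sides of 0.

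The repeat scans of one hybridization show how far a histone value moves between scans of the same array. Laser power and scan order changed together, and their parts were not separated. Over 13 gene and hybridization combinations the high minus low difference ran from -0.40 (HTB2, hybridization 2) to 0.28 (HTA1, hybridization 2). Over all genes with both scans its SD was 0.23 in hybridization 1 (3481 genes) and 0.32 in hybridization 2 (3811 genes). Only 2 of the 13 lay beyond 1 SD of their hybridization, HTA1 at -0.36 in hybridization 1 and HTB2 in hybridization 2. The low scan was the higher one in 10 of the 13. For HHT1 and HTA1 the distance between hybridization 3 and the others was larger than any of these scan differences. The high scans alone and the low scans alone each called the same number, 5 of 6 higher, with 16.3% and 12.4% of all tested called higher.

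Histone genes are short, and the ratio ran with coding length across the array. The 7 measured genes have coding lengths of 312 to 411 bases in the RefSeq table of assembly R64. Spearman's rho between ratio and length across genes, which are not independent replicates, was -0.48 (hybridization 1, 4151 genes), -0.24 (hybridization 2, 4738 genes) and -0.23 (hybridization 3, 1988 genes). With each hybridization's trend on length removed, both H4 genes were still called higher, HHF1 at 1.47 (limma adjusted p = 0.000535) and HHF2 at 0.98 (adjusted p = 0.00933). HTB2 was at 1.17 in the corresponding fit over at least 2 hybridizations (limma adjusted p = 0.01; 7.48% of all called higher). HHT1, HTA1 and HTB1 missed the threshold, at 0.63 (limma adjusted p = 0.0909), 0.61 (adjusted p = 0.108) and 0.41 (adjusted p = 0.238). HHT2 went below 0, to -0.19 (adjusted p = 0.597). The count was thus 2 of 6 higher, with 9.77% of all tested called higher, and the median of the 6 was 0.62 against 0.01 for all tested. The part of length itself in the histone ratios was not tested.

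Centring within groups of features moved HTA1 most. The feature IDs fall into 48 groups of 132 by their first 3 digits, and each hybridization was centred within these groups. HTA1 then stood at 0.59 (limma adjusted p = 0.174), with a value of -0.43 in hybridization 3 beside 1.06 and 1.16 in hybridizations 1 and 2. HHF1 stood at 2.01, HHF2 at 1.72, HHT1 at 1.10 and HTB1 at 0.87, all called higher, and 17.5% of all tested were. HHF2, lowest in hybridization 3 as deposited, had 1.75, 1.85 and 1.57 after this step. With both corrections HHF1 (1.51), HHF2 (1.22) and HHT1 (0.69) were called higher, HTB1 (0.44) and HTA1 (0.17) were not, and 13% of all tested were called higher. Centring on ACT1, the actin gene, which itself had a mean of -0.58 ± 0.18 (SD, n = 3) without a call (limma adjusted p = 0.0874), raised every histone value. All 6 were then called higher, HHT2 at 0.81 included, but so were 48.6% of all tested.

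**Figure D4:**
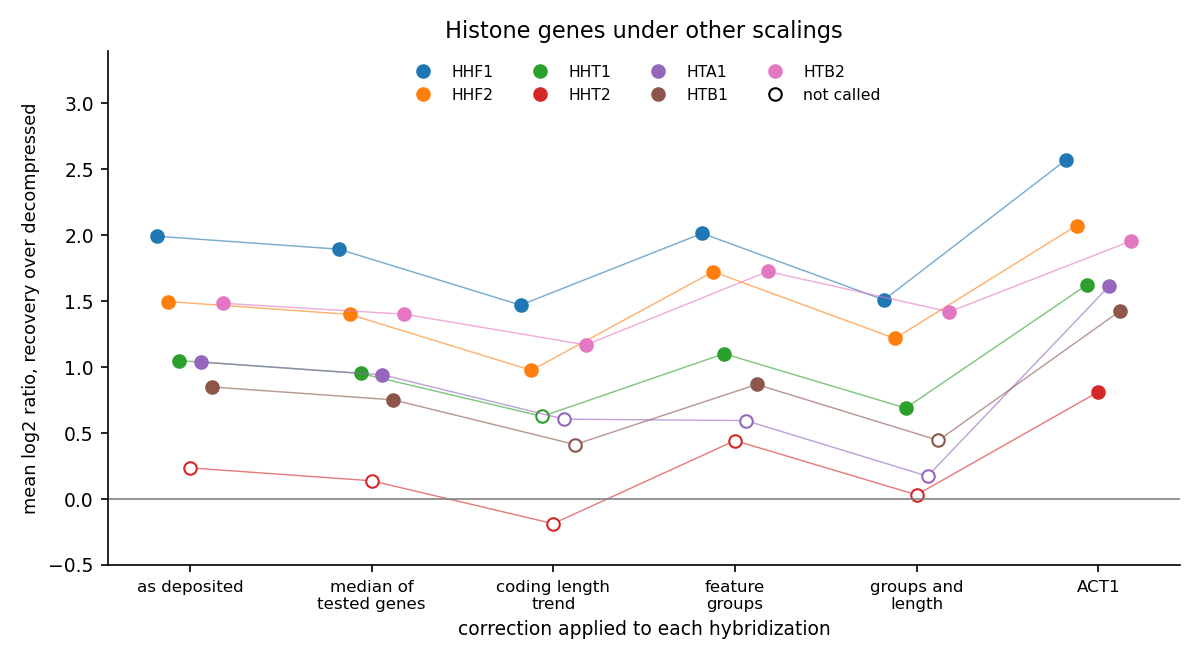
Mean log2 ratio, recovery over decompressed, of each histone gene as deposited and after 5 other scalings of each hybridization; filled points were called higher (limma adjusted p threshold 0.05) and open points were not; HTB2 is from fits over at least 2 hybridizations. HHF1, HHF2 and HTB2 are filled in every column, HTA1 falls to 0.17 under both corrections, and HHT2 is filled under ACT1 centring alone.

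The genes on either side of the histone loci were read as local context, chosen by their place in the R64 gene order. Of 8 flanking genes, 7 had a value in at least 2 hybridizations. Of these, only ADK1, the adenylate kinase gene beyond HTA1, was called, at 0.92 ± 0.43 (SD, n = 3, limma adjusted p = 0.0162). ADK1 missed the threshold when hybridization 2 (0.76, adjusted p = 0.118) or hybridization 3 (0.84, adjusted p = 0.0655) was left out, and after the length correction (0.67, adjusted p = 0.0721). IPP1, the inorganic pyrophosphatase gene beside HHT1, was at 0.34 ± 0.23 (SD, n = 3, limma adjusted p = 0.325). FLR1, beside HHF1, was at 0.28, and at the HHT2-HHF2 locus SIW14 and KTR5 were at 0.18 and 0.36 (n = 2 each). CRF1, beyond HTB1 and so opposite ADK1, was at -0.14 (n = 2). ECM15, beside HTB2, had values of 0.33, 0.38 and -1.03 and a mean of -0.10 ± 0.80 (SD, n = 3). Apart from ADK1 none was called over at least 2 hybridizations, where 24.5% of all were called in either direction.

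Genes that regulate, carry, exchange or modify histones were read from 7 lists of chromatin genes. In the fit over 3 hybridizations few had values, because hybridization 3 resolved a minority of features. Of the 17 listed regulators of histone genes, 1 was tested, LSM1, which acts in cytoplasmic mRNA decapping and decay. LSM1 rose, with values of 0.79, 0.87 and 0.94 and a mean of 0.87 ± 0.08 (SD, n = 3, limma adjusted p = 0.0156). It missed the threshold after the length correction (0.53, adjusted p = 0.112) and when hybridization 1 (adjusted p = 0.0835) or hybridization 2 (adjusted p = 0.0724) was left out. With at least 2 hybridizations 11 regulators were measured, of which 1 was higher and 1 lower, at a median of -0.08 against -0.0068 for all 4368. In that fit 11.9% of all were called higher and 12.7% lower. The HIR subunit genes HIR2 and HPC2 were at -0.11 and 0.21 (n = 2 each), and SWI4, of the SBF factor of G1/S transcription, at 0.26. The member called lower was YTA7, an ATPase known to act at histone genes, at -1.67 and -1.25 in hybridizations 1 and 2 (limma adjusted p = 9.69e-05). HIR2, HPC2, SWI4 and YTA7 were named after their values were seen.

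Among histone chaperones and nuclear import factors, 1 of 5 tested rose and none fell, at a median of 0.10; over all tested 15.1% were called higher and 12.2% lower. The riser was CHZ1, a chaperone of H2A.Z and H2B, with values of 0.83, 1.49 and 1.04 and a mean of 1.12 ± 0.34 (SD, n = 3, limma adjusted p = 0.00491). Without hybridization 2 it was at 0.93 (limma adjusted p = 0.0535), and after the length correction it was at 0.74 and still called (adjusted p = 0.0449). The wider fit, over at least 2 hybridizations, had 1 higher and 1 lower of 14, with 11.9% of all called higher and 12.7% lower. The lower one was NAP1, a chaperone of H2A and H2B, at -0.92 ± 0.47 (SD, n = 2, limma adjusted p = 0.0213), chosen after its value was seen. As for HTB2, the p of NAP1 comes from the pooled variance and does not reflect that SD.

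In the list of SWR1 and INO80 remodellers, which exchange H2A.Z, limma called 0 of 2 tested, with 27.2% of all tested called. At an unadjusted p under 0.05 there were 0 of the 2, beside 738 of all 1891 tested. RVB1, an ATPase of both complexes, had the smallest p, at 0.29 ± 0.14 (SD, n = 3, limma adjusted p = 0.41). In the wider fit 1 of 16 was lower and none higher, INO80 itself at -1.07 (limma adjusted p = 0.00619), where 12.7% of all were called lower and 11.9% higher. Among other nucleosome remodellers 1 of 3 tested rose (15.1% of all tested), SNF11, a subunit of the SWI/SNF complex, with values of 1.40, 1.58 and 1.46 and a mean of 1.48 ± 0.09 (SD, n = 3, limma adjusted p = 0.000688). SNF11 was still called after the length correction (1.14, adjusted p = 0.00287) and without any 1 hybridization. In the wider fit this list had 1 higher and 1 lower of 16, beside 11.9% of all called higher and 12.7% lower. The lower one was SWP82 of the same complex, at -0.86 (limma adjusted p = 0.0323). INO80 and SWP82 were named after their values were seen.

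Of histone acetylation and deacetylation genes limma called 0 of 4 tested, with 27.2% of all tested called. In this list 0 had an unadjusted p under 0.05, beside 738 of all 1891 tested. ESA1, an H4 and H2A acetyltransferase gene, had the smallest p at 0.48 ± 0.39 (SD, n = 3, limma adjusted p = 0.17). In the wider fit, with 11.9% of all called higher and 12.7% lower, 1 of 23 was higher and none lower, HST3, a deacetylase gene that acts on H3, at 1.47 and 0.71 in hybridizations 2 and 3 (limma adjusted p = 0.00536). Of histone methylation and ubiquitination genes limma called 0 of 5 tested over 3 hybridizations, with 27.2% of all tested called. At an unadjusted p under 0.05 there was 1, beside 738 of all 1891 tested. This was RAD6, the ubiquitin-conjugating enzyme for H2B, at 0.60 ± 0.22 (SD, n = 3, limma adjusted p = 0.0757). In the wider fit 2 of 15 were higher, a share close to the 11.9% of all, GIS1 at 0.87 (limma adjusted p = 0.0303) and SWD3 at 0.80 (adjusted p = 0.0491), and none lower. HST3, GIS1 and SWD3 were named after their values were seen. The list of silencing, centromere and other chromatin proteins had 0 limma calls among 4 tested, where 27.2% of all tested were called. It also had 0 at an unadjusted p under 0.05, beside 738 of all 1891 tested. TOP1, a topoisomerase gene, had the smallest p at -0.46 ± 0.47 (limma adjusted p = 0.199). In the wider fit limma called 0 of 9, where 24.5% of all were called.

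**Figure D5:**
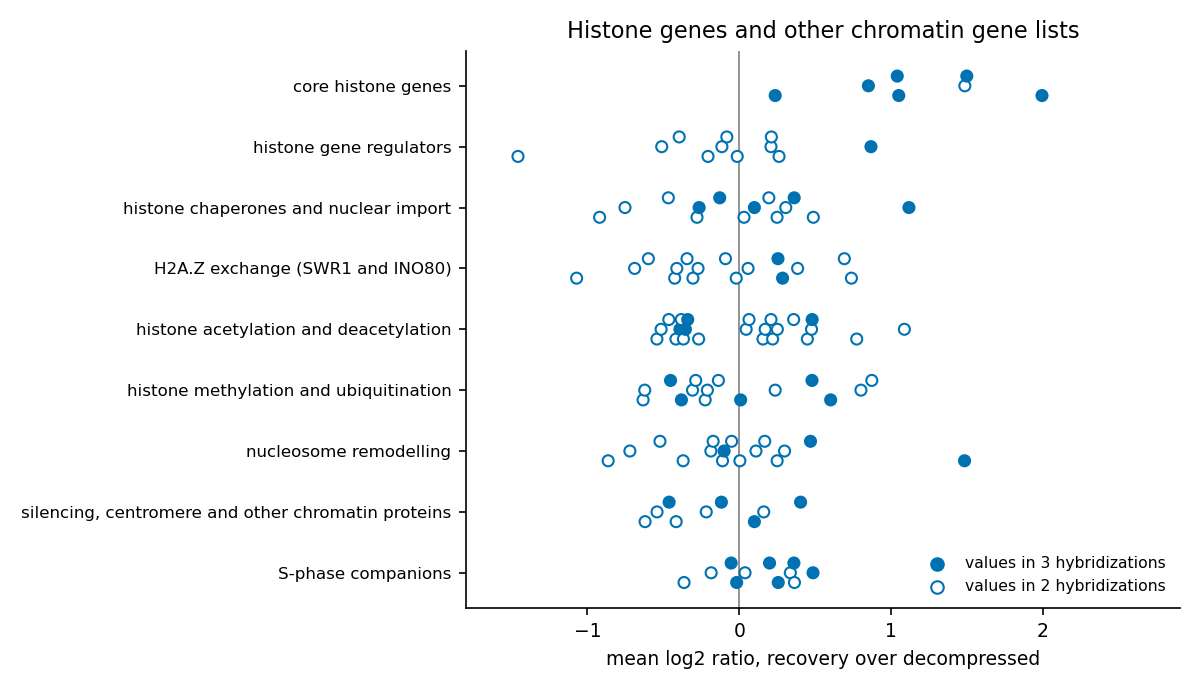
Mean log2 ratio, recovery over decompressed, of each measured gene of the core histones and of 8 other lists (filled, values in 3 hybridizations; open, values in 2). Core histone genes lie between 0.24 and 1.99, while the points of each other list fall on both sides of 0.

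Genes of the G1/S transition and S phase, whose transcription is timed near that of the histones, gave 0 calls by limma among 6 tested, at a median of 0.23. Of all 1891 tested, 27.2% were called. At an unadjusted p under 0.05 there were 0 genes of this list, beside 738 of all tested. POL30, the replication clamp gene, had the smallest p, with values of 0.29, 0.35 and 0.81. Of 11 in the wider fit limma called 0, at a median of 0.20, where 24.5% of all were called. Again 0 had an unadjusted p under 0.05, beside 1532 of all 4368.

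Genes with the profile most like the histones were sought among the 1826 other named genes tested. The mean profile of the 6 core histone genes was 1.21, 1.37 and 0.76 in hybridizations 1, 2 and 3. By Euclidean distance over these 3 values the nearest were YJR115W (0.13), RPL23A, a ribosomal protein gene (0.15), ARO5 (0.17), MIC12, of the mitochondrial inner membrane organising complex (0.21), and VPS28, of the ESCRT-I sorting complex (0.26). Their mean ratios were 1.16, 1.09, 1.15, 1.09 and 1.07. The measure compares 3 arrays of 1 contrast and gives closeness in size only.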

How the data were processed

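Hot-phenol RNA was enriched for polyA and reverse transcribed with dye-coupled dUTP, per the labels' protocols; the authors put spots flagged 0 through LOWESS normalization, per the labels. Each deposited value is a log2 ratio of 1 feature in 1 scan, with the base read from the lowest value, -6.64, the log2 of 0.01. Image analysis and genome build are not given in the sources used here; coordinates are left out. In the annotation of the platform, 5297 of 6336 features have a gene name, 1 gene each. Of 5196 named genes, 5192 matched the RefSeq R64 table. Features of a gene, and then the scans of a hybridization, were averaged.

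Means were tested against 0 with limma 3.58.1 in R 4.3.3 (intercept, eBayes, Benjamini-Hochberg over 1891 genes and features with 3 hybridizations, threshold 0.05). No floor or pseudocount was used. Only the main limma fit was run on simulated data, with independent normal noise. The sign-flip test was checked on known answers. The length and feature group corrections were not simulated. Pairs were compared with exact sign-flip tests. The length trend was removed by lowess on log2 length. The number of arrays, 3, limits the precision. The members, lists and tests were chosen with earlier results of these data known. Named genes are all members, up to 4 called members of each list (otherwise the one with the smallest p), the 5 nearest profiles and ACT1; others, chosen after their values were seen, are marked in the text, and flanking genes were taken by position. Alternatives were single scans, scans as a block, missing-value rules, centring, scaling, length, feature groups, array weights, a robust prior, a plain one-sample test and leaving out hybridizations. Promoter motifs were planned but not searched, since no sequence table was used here.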

Additional observations from a re-analysis of the deposited data

How the results depend on the processing

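HHF1 and HHF2 kept their direction and call under all 17 alternatives run with limma, and HTB2 under its 8. Those of HTB2, which has values in only 2 hybridizations, did not include leaving out a hybridization. HHT1 lost its call after the length correction (0.63) and without hybridizations 1 and 2 in turn (0.81 to 1.41 over the 3). HTA1 lost it there too (0.61; 0.77 to 1.41), after centring within feature groups (0.59) and after both corrections (0.17). HTB1 lost it after the length correction (0.41), after both (0.44) and whichever hybridization was left out (0.75 to 0.98). HHT2 turned to -0.19 after the length correction and passed only when centred on ACT1 (0.81). HTA1 minus HTB1 turned to -0.27 within feature groups and ran from -0.038 to 0.59 with a hybridization left out. The other 5 pairs kept their sign. Leaving out a hybridization could not change it, since each of these pairs had the same sign in every hybridization. The number of the 6 histone genes called higher was 2 after the length correction, 3 after both and 2 to 4 with a hybridization left out, beside 6.08% to 13.9% of all tested. Over all genes the count of 515 calls was 1072 over at least 2 hybridizations, 1057 with hybridizations 1 and 2 alone, 990 centred on ACT1 and 240 to 426 with a hybridization left out. The plain one-sample t-test called 0 of all genes after adjustment and 0 histone genes, where 429 had an unadjusted p under 0.05. Centring on the median changed the balance of all calls to 233 higher and 277 lower, beside 285 and 230. The corrections combining feature groups with length, and feature groups for pairs, were added after the data were seen. Copies of a histone share a coding length, so the length correction leaves their difference as it was by construction. The test of ratios within each array is itself the paired comparison of the groups, with dye and group tied on every array.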
